A study of Mus musculus with 12 samples.

Results

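The cohesin ring subunits studied here are the products of 5 genes, *Rad21*, *Smc1a*, *Smc3*, *Stag1*, and *Stag2*, chosen by name from the 46078 genes of the counts and followed through all 12 RNA-seq libraries. The libraries came from hematopoietic stem and progenitor cells of C57BL/6 mouse bone marrow that had been infected with an shRNA lentivirus carrying a GFP marker, with 3 libraries for each of 4 groups. The cultured cells were GFP+CD48-Sca-1+ cells, sorted on day 3 after infection with a luciferase shRNA (shLuci, the control) or a *Rad21* shRNA (shRad21). In the in vivo experiment, GFP+ KSL cells, that is, lineage-negative cells with Kit and Sca-1 on their surface (LSK cells), were sorted from the marrow of irradiated recipients of cells infected with a luciferase or a *Rad21* shRNA, 3 months after transplantation by the labels and a month later by the study's methods. All cells, controls included, therefore carried a virus and had been kept in culture for infection, and the shRNA lowers the transcript without changing the gene. The labels do not say which *Rad21* hairpin was used in either experiment, nor whether the 3 libraries of a group came from separate cultures or mice, so p-values measure the spread between these libraries, which may be technical. The culture libraries were made with TruSeq RNA v2 and the in vivo libraries with SMART-Seq v4 and Nextera XT, and each experiment had its own sort gate and sequencing lane. Setting and kit, gate, lane, or a difference in hairpin can thus not be told apart in any comparison between the experiments.

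Cohesin is a ring that holds DNA strands together. SMC1A and SMC3 are long coiled-coil ATPases that pair at their hinges, and RAD21, the kleisin, bridges their heads and closes the ring. A STAG protein, either STAG1 or STAG2, binds RAD21, so that each ring carries only one of these paralogs. Cohesin pairs sister chromatids until anaphase, and it extrudes chromatin loops that stop at CTCF. In the hematopoietic system, mutations of cohesin genes, *STAG2* foremost, recur in myeloid leukemia, and lowering cohesin in mouse progenitors is known to favor self-renewal over differentiation.

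The genes of a library drew 15235129 to 29846689 reads in all, and the ring subunits had between 927 reads (*Rad21* in an in vivo shRad21 library) and 13136 reads (*Smc1a*). All 9 stem and progenitor markers on the list used to check the labels, among them *Kit*, *Ly6a* (Sca-1), and *Cd34*, had over 1 CPM (count per 1e+06 counts of the library) in every library. Of these 9, 4 rose and 2 fell with the *Rad21* shRNA in culture, and 4 rose and 3 fell in vivo. *Kit* fell to 37.4% of its control level in culture and to 74.6% in vivo, and *Flt3* to 45.9% and 32.8%. *Slamf1* rose 2.32-fold in culture and 4.13-fold in vivo. Markers of other cells also differed between the groups. All these counts are to be read against all genes tested, of which 14.2% passed in culture (6.18% higher, 8.06% lower) and 11% in vivo (5.65% higher, 5.32% lower). Of 9 granulocyte and monocyte markers, which summed to between 67.8 and 120 CPM in cultured shLuci cells and between 23 and 37 CPM in cultured shRad21 cells, 4 of 5 tested fell in culture. The same list summed to between 1450 and 2000 CPM in shLuci cells and between 1050 and 1280 CPM in shRad21 cells in vivo, where 3 of 8 tested fell. Of 8 B cell markers, 6 of 8 tested fell in vivo (108 to 159 CPM against 59.3 to 79.1 CPM), whereas 1 of 2 tested fell in culture (26.9 to 27.5 CPM against 17.6 to 21.4 CPM). *Ms4a1*, *Ly6g*, *Hba-a1*, and *Hba-a2* were at 0 counts in every culture library. Of 5 megakaryocyte markers, 2 rose and 2 fell of 4 tested in culture (578 to 666 CPM against 598 to 887 CPM), and 3 rose in vivo (240 to 301 CPM against 443 to 601 CPM). The 7 T or NK cell markers summed to between 6.55 and 9.84 CPM in shLuci cells and between 43.8 and 48.3 CPM in shRad21 cells in vivo, nearly all of it *Klrb1c*, the 1 of 3 tested that rose (4.11 to 44.7 CPM), while *Cd4* and *Ncr1* did not pass. Over this list and the erythroid, mast cell or basophil, and stroma lists, 2 of 11 genes tested passed in culture, near the share of all genes, and 5 of 18 in vivo. The part of these differences in the results on the ring subunits was not tested. In bulk RNA, fewer cells of a type and less RNA per cell cannot be told apart.

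The 5 genes lie apart from each other on GRCm38. *Rad21* (ENSMUSG00000022314) spans chr15:51962240-51991747 on the minus strand, and the other genes lie on the plus strand. *Smc3* (ENSMUSG00000024974) spans chr19:53600398-53645833, *Smc1a* (ENSMUSG00000041133) spans chrX:152016428-152062694, and *Stag2* (ENSMUSG00000025862) spans chrX:42149317-42277185. *Stag1* (ENSMUSG00000037286) is the longest, at chr9:100597798-100959375. Exons of 4 of the 5 genes were free of overlap with any other annotated exon, and 0.3385% of the exonic bases of *Stag2* overlapped an antisense gene. The 3 short genes annotated on the same strand inside the introns of *Stag1* held 0.139% to 0.389% as many counts as *Stag1* in culture and 1.99% to 4.43% in vivo.

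The 250 bases upstream of the RefSeq start are shown for *Stag1*, the member that rose with the *Rad21* shRNA, and for *Smc1a* and *Smc3*, whose transcripts did not pass the test. They are on the plus strand of GRCm38.p6, at chr9:100643198-100643447, chrX:152016178-152016427, and chr19:53600146-53600395, and each is given 5′ to 3′ up to the base before the start. The RefSeq table held 3 of the 5 members, so *Rad21* and *Stag2* are not shown. Capitals mark matches, on either strand, to a GC box (GGGCGG or CCGCCC, the letters bound by SP1-type factors) or a CCAAT box (CCAAT or ATTGG), and no 2 matches overlap.

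Stag1: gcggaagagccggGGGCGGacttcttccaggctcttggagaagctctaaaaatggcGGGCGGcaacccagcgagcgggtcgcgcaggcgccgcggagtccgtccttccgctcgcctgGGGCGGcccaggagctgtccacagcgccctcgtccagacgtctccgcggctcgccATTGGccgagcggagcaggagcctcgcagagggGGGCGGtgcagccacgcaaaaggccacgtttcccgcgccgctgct
Smc1a: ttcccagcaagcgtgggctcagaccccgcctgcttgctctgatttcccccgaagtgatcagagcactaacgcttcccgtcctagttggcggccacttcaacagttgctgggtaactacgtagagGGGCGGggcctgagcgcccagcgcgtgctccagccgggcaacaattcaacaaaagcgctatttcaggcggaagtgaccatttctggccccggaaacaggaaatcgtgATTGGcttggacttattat
Smc3: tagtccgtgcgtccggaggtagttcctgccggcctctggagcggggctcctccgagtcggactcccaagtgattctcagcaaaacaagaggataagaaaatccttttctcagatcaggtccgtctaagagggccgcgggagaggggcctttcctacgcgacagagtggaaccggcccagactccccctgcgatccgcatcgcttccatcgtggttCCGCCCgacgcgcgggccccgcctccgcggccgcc

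The *Stag1* window held 4 GC boxes and 1 CCAAT box, the *Smc1a* window 1 of each, and the *Smc3* window 1 GC box and no CCAAT box. Over the same 250 bases, a GC box was found in 32.7% and a CCAAT box in 33.8% of 32851 RefSeq promoters of the genome. None of the 3 windows held the letters TATAAA, which 12.4% of all promoters held, or the core of the CTCF motif, which 2.93% held, on either strand. All 3 windows were rich in G and C, at 71.2% in *Stag1*, 56.8% in *Smc1a*, and 64.4% in *Smc3* against a median of 52.4%, and they held 31, 16, and 26 CpG dinucleotides against a median of 6. The *Stag1* window lies 45650 bases inside the gene as GENCODE draws it, in an intron of the transcript that starts farthest upstream. These matches describe the letters of the windows and are not binding sites.

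Levels are given as RPKM, that is, reads per kilobase of the gene's exons per 1e+06 reads, scaled between libraries by the TMM method, so that genes of unequal length can be set side by side. In cultured shLuci cells, *Rad21* and *Smc1a* were the most abundant subunits, at 95.1 ± 4.18 RPKM and 85.0 ± 2.85 RPKM (SD, n = 3 here and in the following). *Smc3* (42.6 ± 2.01 RPKM) and *Stag2* (42.0 ± 2.26 RPKM) came next and did not differ beyond their spread. *Stag1* was the lowest at 10.4 ± 0.397 RPKM. By RPKM, *Rad21* lay at percentile 97.2 of the tested genes and *Stag1* at percentile 62.7.

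The order was different in shLuci cells in vivo. *Smc1a* was the highest subunit at 55.4 ± 1.46 RPKM, followed by *Smc3* at 35.1 ± 1.18 RPKM and *Rad21* at 28.9 ± 0.9 RPKM. *Stag2* was at 20.7 ± 0.706 RPKM and *Stag1* again the lowest at 9.81 ± 0.726 RPKM, and no neighbors in this order overlapped between libraries. The order depends on the exonic length by which counts are divided, and *Stag1* is the most affected, with 11781 bases in the union of its exons and 6186 bases in its longest transcript. By the longest transcript, *Smc1a* (104.5 RPKM) and not *Rad21* (101.8 RPKM) had the higher mean in cultured shLuci cells. In the same cells *Stag2* (56.28 RPKM) then lay above *Smc3* (48.67 RPKM) without overlap between libraries, whereas the union of exons put them level.

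**Figure D1:**
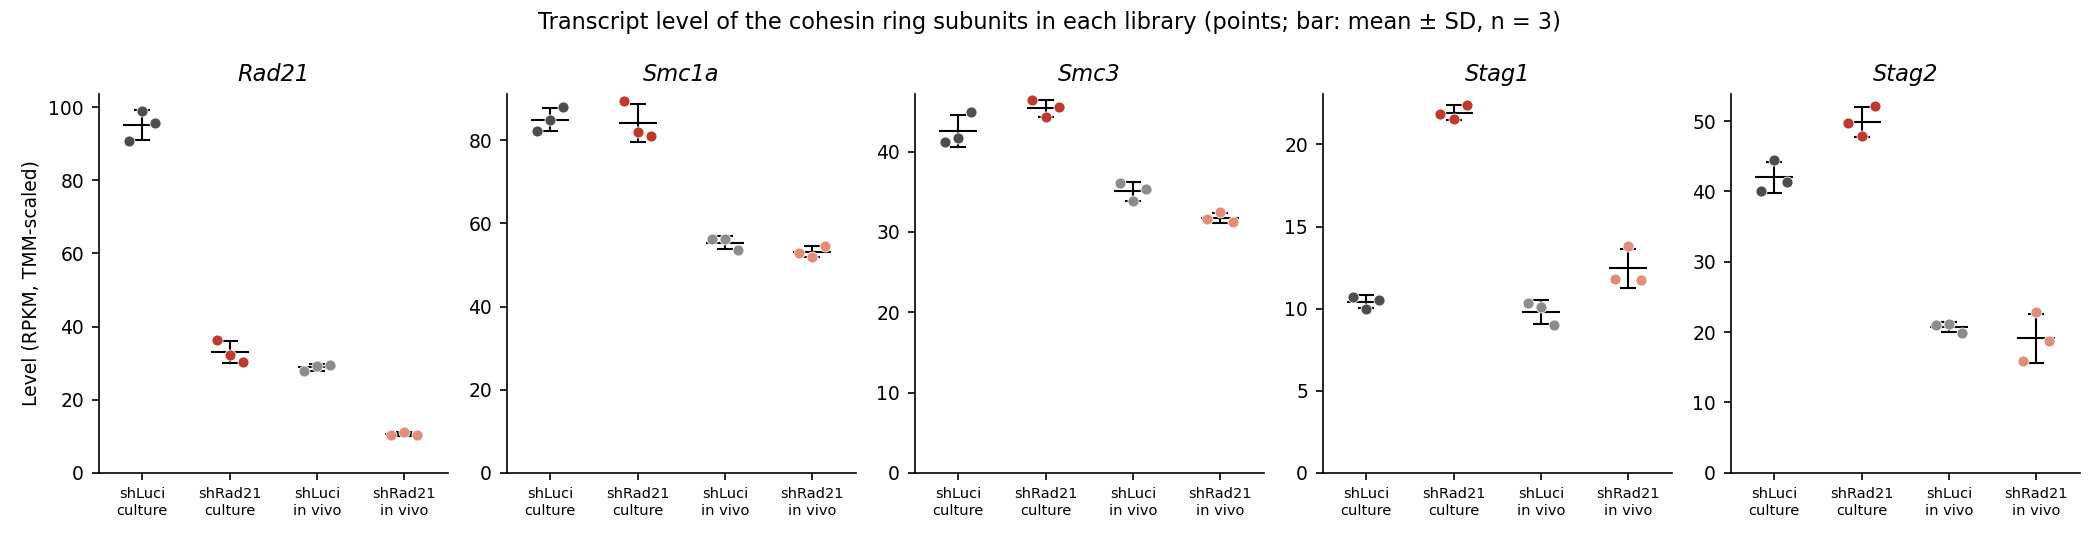
Level of each ring subunit (vertical axis, RPKM, TMM-scaled, starting at 0) in each library (points) of the 4 groups, with the mean and SD of 3 libraries as bars. *Rad21* is lower in all shRad21 libraries of both experiments, *Stag1* is higher in them, most in culture (21.9 against 10.4 RPKM), and *Smc1a* overlaps between shRad21 and shLuci.

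*Rad21*, the target of the shRNA, fell to 34.8% of its control level in culture and to 37.2% in vivo. In cultured shLuci cells, the 3 libraries had 90.7, 98.9, and 95.8 RPKM, and in cultured shRad21 cells 36.3, 32.3, and 30.3 RPKM. The groups did not overlap, and the highest shRad21 library was far under the lowest shLuci library. The log2 fold change was -1.52 (SE 0.0885, adjusted p = 1.16e-05, quasi-likelihood test of edgeR, adjusted by Benjamini-Hochberg over all 15543 genes tested), and the 95% interval of the share that was left was 30.4% to 39.9%. By p, *Rad21* took rank 3 of the genes tested in culture.

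In vivo, the shLuci libraries had 27.8, 29.3, and 29.5 RPKM of *Rad21* and the shRad21 libraries 10.3, 11.3, and 10.3 RPKM. Again the groups did not overlap. The log2 fold change was -1.43 (SE 0.0707, adjusted p = 8.82e-06, edgeR), with an interval of 33.3% to 41.5% for the share that was left, and *Rad21* took rank 6 by p of 15938 genes tested. *Rad21* started from a lower level in vivo, so that shLuci cells in vivo (28.9 RPKM) were under shRad21 cells in culture (33.0 ± 3.07 RPKM), across different kits. This order depended on the scaling. By library size alone, *Rad21* had 28.99 to 30.96 RPKM in shLuci libraries in vivo and 28.54 to 34.86 RPKM in cultured shRad21 libraries, with overlap. The knockdown effect itself did not differ detectably between the experiments, with a difference in log2 fold change, culture minus in vivo, of -0.085 (95% interval -0.32 to 0.14, adjusted p = 0.765, edgeR).

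The knockdown was partial in every library and it did not come with a detectable fall of the other ring subunits. Of the 5 genes, 2 passed the threshold of 0.05 on the adjusted p in culture, *Rad21* lower and *Stag1* higher, where 14.2% of all genes tested passed, 6.18% higher and 8.06% lower. In vivo, 2 of 5 passed, again *Rad21* lower and *Stag1* higher, where 11% of all genes passed, 5.65% higher and 5.32% lower. The libraries of shRad21 and shLuci did not overlap for 3 of the 5 genes in culture and for 3 in vivo, as for 31.5% and 29.1% of all genes tested. The median log2 fold change over the 5 genes was 0.10 in culture and -0.095 in vivo, and over all genes tested -0.004 and -0.002. These counts and medians include *Rad21*, the target of the shRNA, whose fall the design aimed at. *Stag1* was the only other subunit that passed in either experiment.

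*Smc1a* and *Smc3*, which encode the paired ATPases, did not pass the test in either experiment. In culture, *Smc1a* had 82.2, 84.9, and 87.9 RPKM in shLuci libraries and 89.4, 82.0, and 81.0 RPKM in shRad21 libraries. These groups overlapped, and the log2 fold change of -0.008 had a 95% interval of -0.18 to 0.16 (adjusted p = 0.97, edgeR). In vivo, *Smc1a* had 56.3, 56.2, and 53.7 RPKM in shLuci libraries and 52.8, 52.0, and 54.6 RPKM in shRad21 libraries, with overlap and a log2 fold change of -0.044 (-0.17 to 0.08, adjusted p = 0.705, edgeR).

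For *Smc3* in culture, shLuci libraries had 41.2, 41.8, and 44.9 RPKM and shRad21 libraries 46.4, 44.3, and 45.6 RPKM. The groups overlapped, and the log2 fold change was 0.10 (-0.06 to 0.26, adjusted p = 0.438, edgeR). In vivo, shLuci libraries had 36.1, 33.8, and 35.3 RPKM and shRad21 libraries 31.6, 32.4, and 31.3 RPKM. All shRad21 libraries were under all shLuci libraries, but the log2 fold change of -0.13 (-0.25 to -0.001) did not pass the adjustment (adjusted p = 0.204, edgeR).

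*Stag1*, the less abundant of the STAG paralogs, rose in both experiments and rose more in culture. In cultured shLuci cells, it had 10.7, 9.96, and 10.6 RPKM and in cultured shRad21 cells 21.8, 21.6, and 22.4 RPKM. Every shRad21 library was far above every shLuci library, and the libraries of a group lay close together. Its log2 fold change was 1.08 (SE 0.0725, 95% interval 0.92 to 1.24, adjusted p = 1.53e-05, edgeR), a 2.12-fold rise, and *Stag1* took rank 12 by p of the genes tested in culture.

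In vivo, *Stag1* had 10.3, 10.1, and 8.98 RPKM in shLuci libraries and 11.8, 13.8, and 11.8 RPKM in shRad21 libraries. The groups did not overlap, although the lowest shRad21 library was close to the highest shLuci library. This gave a log2 fold change of 0.36 (SE 0.0885, 0.16 to 0.56, adjusted p = 0.0285, edgeR), a 1.28-fold rise. This call was lost without shLuci replicate 2 (adjusted p = 0.0577), shLuci replicate 3 (0.0856), shRad21 replicate 2 (0.0652), or shRad21 replicate 3 (0.0567, edgeR), with log2 fold changes from 0.28 to 0.40 across all 6 omissions.

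The rise of *Stag1* differed between the experiments when that difference was tested. The log2 fold change in culture exceeded that in vivo by 0.73 (SE 0.11, 0.50 to 0.97, adjusted p = 0.00162, edgeR on all 12 libraries), and the difference passed without any 1 library (0.69 to 0.81). *Stag1* was the only ring subunit past the threshold in this test (1 of 5), which 4.67% of all genes passed. The *Stag1* levels of shLuci cells, 10.4 RPKM in culture and 9.81 RPKM in vivo, did not differ detectably (adjusted p = 0.34, edgeR), across different kits.

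*Stag2*, the more abundant paralog, had 40.1, 44.5, and 41.4 RPKM in cultured shLuci cells and 49.7, 47.9, and 52.1 RPKM in cultured shRad21 cells. All shRad21 libraries were above all shLuci libraries. The log2 fold change was 0.26 (SE 0.0782, 0.08 to 0.43), and its adjusted p of 0.0518 (edgeR) just missed the threshold. With the replicate number as a block, it was 0.26 with an adjusted p of 0.0359 (edgeR), and 4 other settings also put it past the threshold. It passed in 0 of 6 fits that each left out a library (0.22 to 0.30, adjusted p 0.0535 to 0.183, edgeR).

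In vivo, *Stag2* had 21.0, 21.1, and 19.9 RPKM in shLuci libraries and 15.9, 22.8, and 18.7 RPKM in shRad21 libraries. The shRad21 libraries lay on both sides of the shLuci libraries and varied more, with a CV of 18.2% against 3.41%. The log2 fold change was -0.095 (-0.36 to 0.17, adjusted p = 0.694, edgeR). The difference in log2 fold change between culture and in vivo was 0.36 for *Stag2* (0.05 to 0.67, adjusted p = 0.192) and 0.24 for *Smc3* (0.05 to 0.42, adjusted p = 0.153, edgeR), neither past the threshold. Without shRad21 replicate 2 in vivo, the highest *Stag2* library of its group, the *Stag2* difference was 0.50 and passed (adjusted p = 0.0243, edgeR). For *Smc1a* the difference was 0.044 (-0.14 to 0.23, adjusted p = 0.869, edgeR).

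**Figure D2:**
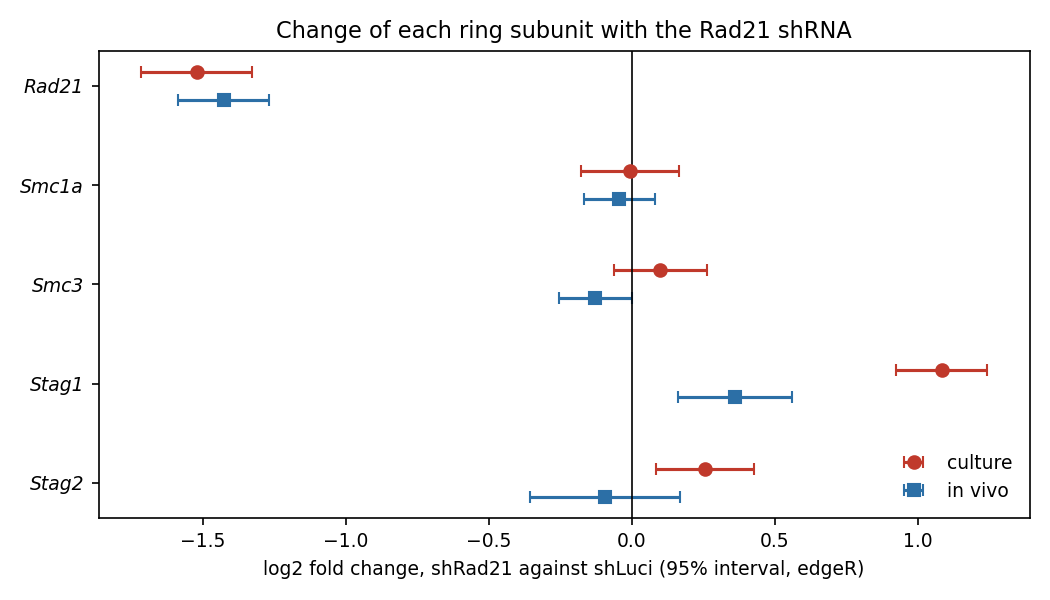
Log2 fold change of shRad21 against shLuci (horizontal axis) for the 5 ring subunits in culture (circles) and in vivo (squares), with 95% intervals of edgeR's quasi-likelihood fit. The *Rad21* intervals overlap between the experiments (-1.52 and -1.43), the *Stag1* intervals do not (1.08 and 0.36), and both *Smc1a* intervals include 0.

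The levels of the subunits relative to each other changed with these shifts, as given here by ratios of RPKM without a test. The ratio of *Rad21* to *Smc3*, the kleisin against an ATPase, was 2.2, 2.37, and 2.13 in cultured shLuci libraries and 0.783, 0.728, and 0.665 in cultured shRad21 libraries. In vivo it was 0.77, 0.866, and 0.834 in shLuci libraries and 0.324, 0.347, and 0.33 in shRad21 libraries. The ratio in shLuci cells in vivo (0.823 ± 0.049) was thus nearer to that in cultured shRad21 cells (0.726 ± 0.0591) than to that in cultured shLuci cells (2.23 ± 0.121). The ratio of *Smc1a* to *Smc3* moved less, from 2 ± 0.0369 to 1.85 ± 0.0742 in culture and from 1.58 ± 0.0737 to 1.67 ± 0.0715 in vivo.

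*Stag1* made up a larger share of the STAG transcripts in shRad21 cells. Its percentage of the summed *Stag1* and *Stag2* RPKM was 21.1%, 18.3%, and 20.3% in cultured shLuci libraries and 30.5%, 31%, and 30.1% in cultured shRad21 libraries. In vivo it was 32.9%, 32.4%, and 31.1% in shLuci libraries and 42.7%, 37.7%, and 38.6% in shRad21 libraries. The groups of neither experiment overlapped, and *Stag2* had the higher mean in all 4 groups. In culture, the group means of shRad21 and shLuci differed by 11.5 RPKM for *Stag1* and by 7.89 RPKM for *Stag2*, and in vivo by 2.65 RPKM and -1.54 RPKM. By the longest transcript of each gene, the share was higher in each group, at 26.1% and 38.5% in culture and 40.2% and 48.3% in vivo, with the same order of groups.

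**Figure D3:**
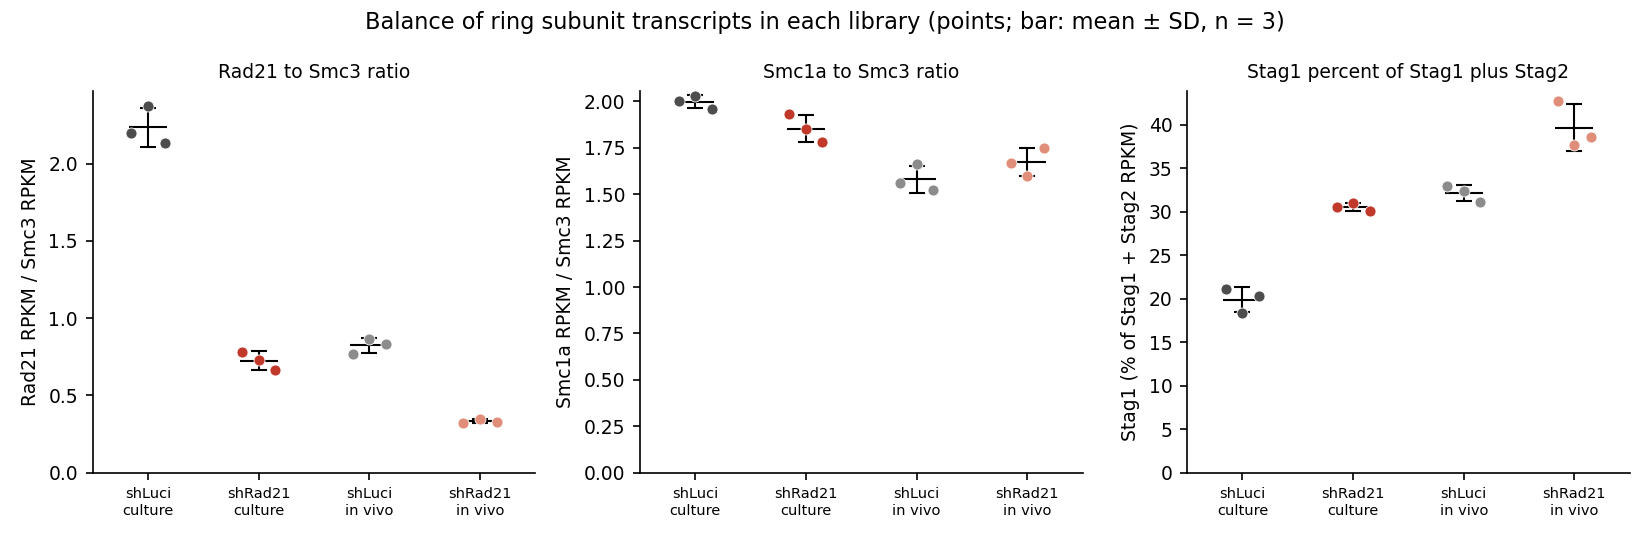
Ratio of *Rad21* to *Smc3* RPKM, ratio of *Smc1a* to *Smc3* RPKM, and *Stag1* as a percentage of *Stag1* plus *Stag2* RPKM (vertical axes, from 0) in each library (points), with the mean and SD of 3 libraries as bars. In shRad21 cells the *Rad21* ratio is lower and the *Stag1* share higher in both experiments (30.6% against 19.9% in culture, 39.7% against 32.2% in vivo).

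With the knockdown, the order of the subunits changed as well. In cultured shRad21 cells, *Smc1a* led at 84.1 ± 4.58 RPKM, followed by *Stag2* (49.9 ± 2.12 RPKM), *Smc3* (45.4 ± 1.05 RPKM), *Rad21* (33.0 ± 3.07 RPKM), and *Stag1* (21.9 ± 0.45 RPKM). In vivo, the order in shRad21 cells was *Smc1a* (53.2 ± 1.33 RPKM), *Smc3* (31.8 ± 0.596 RPKM), *Stag2* (19.1 ± 3.48 RPKM), *Stag1* (12.5 ± 1.17 RPKM), and *Rad21* (10.6 ± 0.567 RPKM). *Rad21* was thus the lowest of the 5 in vivo, with no overlap between neighbors in either order, whereas in culture it was the lowest only when counts were divided by the longest transcript.

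Between cultured and in vivo shLuci cells, 4 of the 5 subunits were higher in culture, where 74.2% of all genes tested passed in either direction and 37.1% were higher. *Rad21* had the largest difference of the ring subunits, 3.3-fold higher in culture (log2 difference 1.72, SE 0.0768, adjusted p = 4.86e-11), followed by *Stag2* at 2.03-fold (1.02, SE 0.102, adjusted p = 3.38e-07, edgeR). *Smc1a* was 1.53-fold higher (0.62, SE 0.0622, adjusted p = 3.65e-07) and *Smc3* 1.21-fold higher (0.28, SE 0.0611, adjusted p = 0.000743, edgeR). *Stag1* had a log2 difference of 0.085 (-0.08 to 0.25), which turned to -0.034 with upper-quartile scaling and to -0.09 with library size alone. These scalings moved the median of all genes by -0.12 and -0.18, and *Smc3* lost its call by library size alone (0.11, adjusted p = 0.123, edgeR). The shLuci libraries are the same ones as in the knockdown comparisons, and the kits differ, so the values of this comparison stand as a description of the baseline.

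The 13 genes that act on the ring, listed for loading, release, acetylation, cleavage, and CTCF had a median log2 fold change of -0.011 in culture, where 1 passed the test, and -0.038 in vivo, where 1 passed. These counts are no higher than the shares of all genes that passed, 14.2% in culture and 11% in vivo, and are no result about the list. *Ctcf*, the factor at which loop extrusion stops, rose in culture from 200.5 ± 10.4 to 238.8 ± 4.99 CPM (log2 fold change 0.26, adjusted p = 0.0398, edgeR), but passed in only 1 of 6 fits that each left out a library, the one without shLuci replicate 3. *Cdca5* (sororin), which protects cohesin on replicated chromatids from release, fell in vivo from 99.6 ± 7.25 to 70.3 ± 3.45 CPM (-0.49, adjusted p = 0.00398, edgeR) and was at -0.011 in culture (adjusted p = 0.961). The loader genes *Nipbl* (0.11 in culture and 0.05 in vivo) and *Mau2* (0.07 and 0.01) and the release gene *Wapl* (-0.03 and -0.04) did not pass in either experiment. Of the acetyltransferases that lock the ring, *Esco1* was at 0.26 in culture (adjusted p = 0.0897) and 0.17 in vivo (adjusted p = 0.374, edgeR). *Esco2* was at -0.018 in culture (adjusted p = 0.936) and -0.27 in vivo (adjusted p = 0.164, edgeR), so neither gene passed in either experiment.

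Among the 13, 7 were higher and 3 lower in cultured than in in vivo shLuci cells, across different kits. Of all genes tested, 74.2% passed in this comparison and 37.1% were higher. The 10 calls are thus near the share of all genes and are no result about the list. *Pds5a* (1.27, adjusted p = 8.11e-10) and *Nipbl* (1.14, adjusted p = 8.55e-09) had the largest positive log2 differences of the list. *Cdca5* (-1.03, adjusted p = 6.19e-08, edgeR) had the largest negative one. Of these 10 calls, *Ctcf* (0.15, adjusted p = 0.0383) passed under none of 7 alternatives other than omission (adjusted p 0.0521 to 0.751), and *Sgo1* (-0.28, adjusted p = 0.0304, edgeR) passed under 6 of 7 and in 8 of 12 fits that each left out a library. Of the 4 meiotic subunits, which stand in for ring members in germ cells, *Rad21l* and *Smc1b* were too low to be tested. *Rec8*, a kleisin like *Rad21*, had log2 fold changes of 0.13 in culture and 0.22 in vivo, neither past the threshold (adjusted p = 0.762 and 0.205, edgeR). Its transcript was present in all groups, at 29.4 ± 8.2 CPM in shLuci and 32.2 ± 8.58 CPM in shRad21 cells in culture. In vivo *Rec8* was at 43.1 ± 4.48 and 49.6 ± 4.24 CPM. *Stag3*, the meiotic STAG paralog, fell in culture from 19.7 ± 1.09 to 14.2 ± 0.854 CPM (-0.47, adjusted p = 0.0163, edgeR), the opposite direction to *Stag1*. It passed in 3 of 6 fits that each left out a library. The call was lost without shLuci replicate 2 (adjusted p = 0.0573), shRad21 replicate 1 (0.0544), or shRad21 replicate 3 (0.0855, edgeR), and also in a single model of all 12 libraries (0.269, edgeR). In vivo *Stag3* was at -0.62 and did not pass (adjusted p = 0.325, edgeR). Its level there was low, at 5.88 ± 2.71 CPM in shLuci cells and 3.79 ± 1.19 CPM in shRad21 cells.

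**Figure D4:**
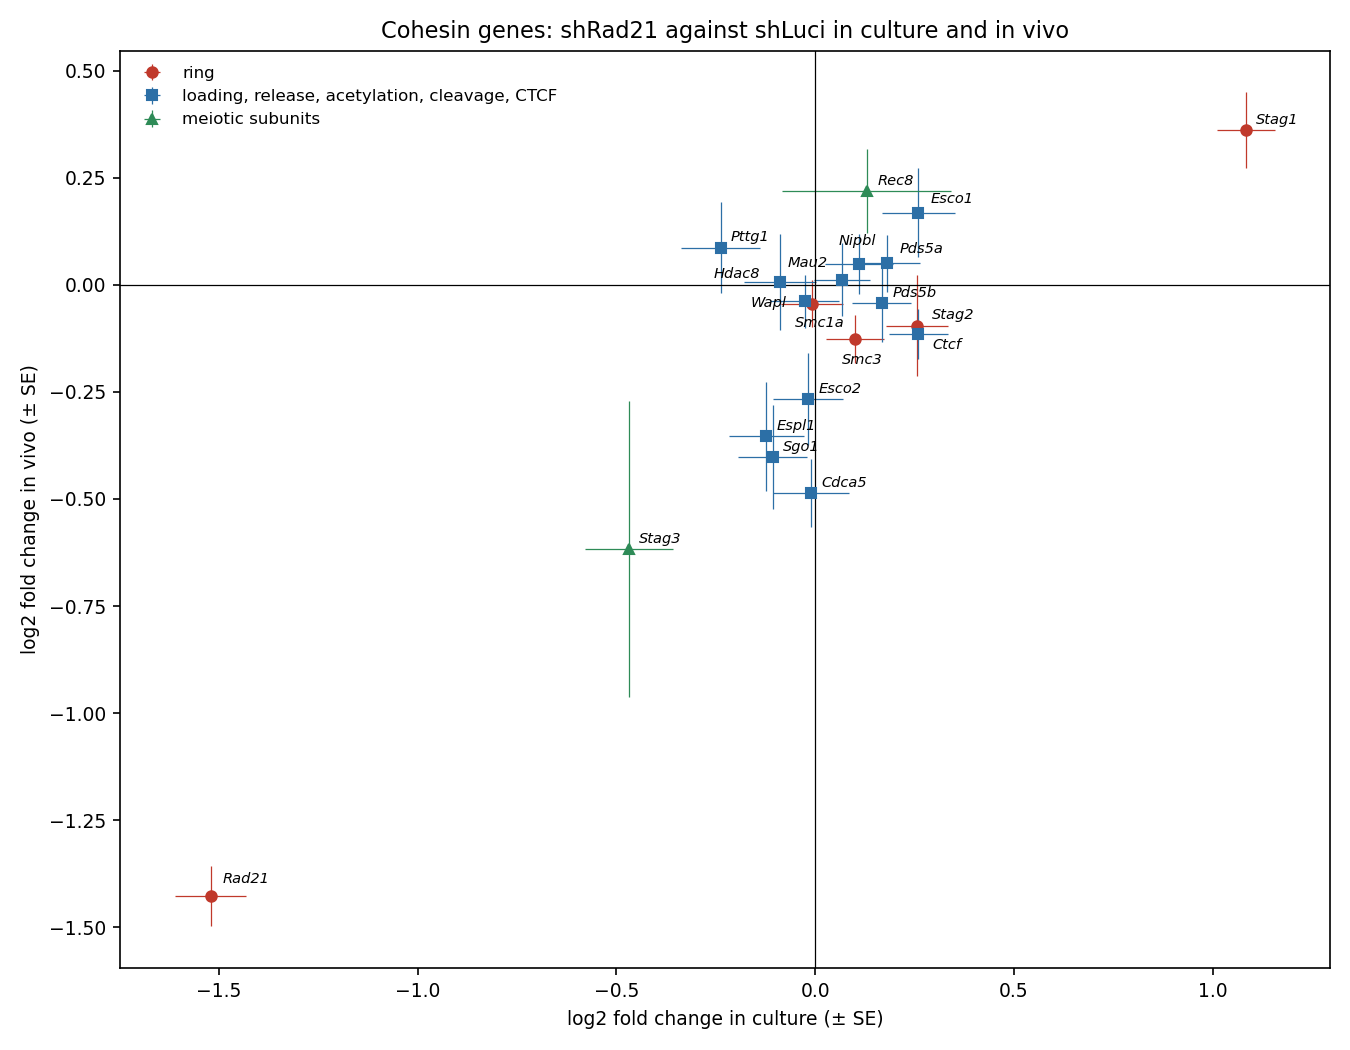
Log2 fold change of shRad21 against shLuci in culture (horizontal axis) and in vivo (vertical axis) for the 5 ring subunits (circles), the 13 regulators (squares), and the 2 meiotic subunits tested (triangles), with bars of 1 SE. *Rad21* and *Stag1* stand apart from the other genes, most of which lie near 0 in culture. *Cdca5* lies at -0.49 in vivo, and *Stag3* at -0.47 in culture and -0.62 in vivo.

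Cell cycle genes moved beside these values, and their part in the ring subunit results was not tested. Of all genes tested, 8.06% fell and 6.18% rose in culture, and 5.32% fell in vivo. Of 15 G2/M genes, none passed in culture (median log2 fold change -0.018) and 14 fell in vivo (median -0.44), among them *Top2a* (-0.60), *Plk1* (-0.49), and *Cdk1* (-0.46). Their summed level went from 2410 to 2660 CPM in shLuci cells to 1690 to 2040 CPM in shRad21 cells in vivo, and from 2930 to 3140 CPM to 2630 to 3100 CPM in culture. Of 15 S phase genes, 1 rose in culture (*Chaf1b*, 0.45) and 3 fell in vivo (*Mcm7*, *Cdt1*, and *Tyms*). Of 15 genes of condensin and SMC5/6, ring complexes related to cohesin, 1 rose in culture (*Nsmce1*, 0.44) and 4 fell in vivo (*Smc4*, *Ncaph*, *Ncaph2*, and *Nsmce1*). The single calls of these lists in culture are near the share of all genes. *Smc1a*, *Smc3*, and *Stag2* had log2 fold changes between -0.13 and -0.044 in vivo and did not pass the test.

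The genes most like *Rad21* and *Stag1* over the 12 libraries were found by the root mean square difference in log2 CPM from the shLuci mean of the same experiment, among 12983 genes, as a description without a test. For *Rad21* these were *Hk3* (0.149), *Haao* (0.168), *Dusp5* (0.186), *P2ry2* (0.187), and *Smagp* (0.19). Their log2 fold changes lay from -1.87 to -1.40 in culture and from -1.45 to -1.24 in vivo. For *Stag1* the nearest were *Mfsd3* (0.148), *Zfp521* (0.151), *Rpgrip1* (0.177), *Tulp4* (0.182), and *Camk2a* (0.183). These had log2 fold changes of 0.78 to 1.26 in culture and of 0.24 to 0.56 in vivo, a range that the choice by likeness fixes in part. All of these genes passed in culture (adjusted p 0.000259 to 0.00251) and none passed in vivo (0.162 to 0.266, edgeR). No ring subunit or regulator was among the genes most like *Rad21* or *Stag1*.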

How the data were processed

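RNA-seq was deposited for 12 libraries, 3 in each of 4 groups named by the labels. The authors mapped reads to GRCm38 with TopHat2 2.0.11 and counted them on genes with HTSeq 0.6.1 (versions per the submitters' processing notes), and deposited the raw counts, in whole numbers. The strand setting and annotation release are not given in the sources used here. Of 46078 genes, 45229 were matched to GENCODE M21, and the 849 others held 0.105% of counts. Genes passing filterByExpr (10 counts at the median library size, 15 in total) were TMM-normalized and tested with edgeR 4.0.16 in R 4.3.3 by two-sided quasi-likelihood tests, with Benjamini-Hochberg adjustment over all genes tested and a threshold of 0.05, in each experiment alone for the knockdown and in a model of 12 libraries for shLuci cells and for the interaction. All 5 ring subunits passed the filter in each fit. RPKM used the union of annotated exons.

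Taken over genes together, replicate libraries differed more than read sampling would give, with a chi-square of 6.16 to 22.6 for each degree of freedom. This measure was not taken for the ring subunits alone, so it does not give the part of depth in their spread. The replicate numbers in the labels are not said to pair libraries. Deviations of same-numbered libraries from their group means correlated at 0.217, 0.17, and 0.21 in culture, and at 0.0341, 0.0509, and 0.0575 in vivo. For libraries of unlike number, the correlations ran from -0.25 to 0.0441 in culture and from -0.0778 to 0.0242 in vivo. The main tests did not use the numbers as pairs in either experiment, and a block by replicate number was run only as an alternative.

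The members, gene lists, and tests were chosen with earlier results of these data known. The text names the ring subunits in every comparison, genes of the 2 other cohesin lists, genes of other lists past the threshold, and the 5 genes most like a called subunit. Markers served to check the labels. Alternatives were DESeq2 1.42.0, other scalings and filters, the replicate block, a single model, omission of each library, and another gene length. Steps were tested on simulated data. Figures and promoter matches were made in Python 3.11.15 (matplotlib 3.10.9, NumPy 2.4.6, pandas 2.3.3).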

Additional observations from a re-analysis of the deposited data

Results flagged for a closer look

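Of the ring subunits and their regulators, 3 genes responded differently to the *Rad21* shRNA in culture and in vivo by the interaction test of edgeR, which 4.67% of all genes tested passed. *Stag1* rose more in culture, by a difference in log2 fold change of 0.731 (adjusted p = 0.00162), and passed in all 12 fits that each left out a library. *Cdca5* differed by 0.483 (adjusted p = 0.0378), with a fall in vivo and a log2 fold change of -0.011 in culture, and passed in 4 of 12 such fits (adjusted p 0.0258 to 0.101). *Ctcf* differed by 0.382 (adjusted p = 0.0223), with a rise in culture and a log2 fold change of -0.12 in vivo that did not pass, and passed in 6 of 12 such fits (adjusted p 0.0119 to 0.064) and under 6 of 7 other alternatives, the call being lost with no expression filter (0.362, adjusted p = 0.091). Setting, library kit, and any difference in hairpin cannot be told apart in these differences.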

How the results depend on the processing

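The fall of *Rad21* passed in both experiments under all 8 alternatives other than omission (log2 fold change -1.53 to -1.5 in culture and -1.44 to -1.41 in vivo), as did the rise of *Stag1* (1.08 to 1.11 and 0.35 to 0.38) and, under its 7, the *Stag1* interaction (0.71 to 0.74). Without each library in turn, *Stag1* in vivo ranged from 0.278 to 0.405, *Stag2* in vivo from -0.243 to 0.029, *Smc1a* in culture from -0.041 to 0.026, and the *Stag2* interaction from 0.238 to 0.501. In these omissions *Stag2* in culture ranged from 0.223 to 0.302 and passed in 0 of 6 fits (adjusted p 0.0535 to 0.183, edgeR). *Stag2* in culture passed with DESeq2 (0.261, adjusted p = 0.0192), upper-quartile scaling (0.253, 0.0499), library size only (0.279, 0.0314), no expression filter (0.275, 0.0313), and the replicate block (0.257, 0.0359), which changed no other call on a ring subunit. In vivo, where same-numbered libraries correlated only weakly, the block left *Stag2* at -0.111 and *Stag1* at 0.359. *Smc1a* in culture turned to 0.016 by library size only and to 0.012 with no expression filter. Between shLuci cells, *Stag1* turned to -0.034 (upper quartile) and -0.09 (library size only), *Ctcf* to -0.023 and *Smc3* to 0.106 (adjusted p = 0.123) by library size only. The *Smc3* interaction passed with DESeq2 (0.246, adjusted p = 0.0359), so that 2 ring subunits passed there, and 1 to 2 passed without each library, as in vivo. Genes past the threshold in the interaction were 796, against 1252 with DESeq2, 1409 with no expression filter, and 492 to 845 without each library. In vivo they were 1749, against 2829 with no expression filter and 951 to 1562 without each library, and in culture 2213, against 1352 to 2817. By the longest transcript, *Rad21* ranked 2nd of the 5 subunits (2 and not 1) in cultured shLuci cells and last (5 and not 4) in cultured shRad21 cells. The *Rad21* to *Smc3* ratio then became 2.09 in cultured shLuci cells and 0.771 and 0.313 in shLuci and shRad21 cells in vivo, the *Smc1a* to *Smc3* ratio 2.15, 1.99, 1.7, and 1.8, and the *Stag1* share 26.1%, 38.5%, 40.2%, and 48.3% (shLuci and shRad21, culture and then in vivo). The cause of these shifts was not tested, apart from the gene lengths that make the last ones.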
